A study of Mus musculus with 8 samples.

Results

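The receptor gene Cx3cr1, its ligand gene Cx3cl1 and 7 further genes of monocyte identity and recruitment were followed in 8 HCA-1 tumors. The 9 genes are Cx3cr1, Cx3cl1, Nr4a1, Ccr2, Ly6c2, Ly6c1, Spn, Csf1r and Ccr1, taken by symbol from the 55536 genes counted. Cx3cr1 was chosen by its log2 fold change and adjusted p in the very comparison described here, and the other 8 were selected with that result known, so their values are given as a description without a test. HCA-1 is a mouse hepatocellular carcinoma (HCC) line, which had been placed under the liver capsule of male C3H mice aged 6 to 8 weeks per the labels, whereas the methods text gives a younger age. On day 17 the treated mice received an intravenous injection of PFSUV-IMQ, which is the TLR7 agonist imiquimod (IMQ) in phospholipid-free small unilamellar vesicles, at 4 mg/kg. Bulk RNA was sequenced from 4 PFSUV-IMQ tumors (replicate numbers 1, 2, 3 and 4), collected 3 h after dosing, and from 4 tumors of the saline control group (1, 3, 4 and 5). All 8 tumors came from the same implanted line, and the control received saline rather than empty vesicles, so the drug and its carrier cannot be told apart.

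CX3CR1 is the receptor for fractalkine (CX3CL1), a chemokine that is held on the membrane of endothelial and other cells until the proteases ADAM10 and ADAM17 release it. In mice the receptor is high on non-classical (patrolling) monocytes, microglia and several tissue macrophages, and it is also found on classical monocytes, dendritic cells and some natural killer cells. Classical monocytes carry Ly6C and CCR2, the receptor that takes them out of the bone marrow towards CCL2 and CCL7, and they lose both while turning into non-classical monocytes under the nuclear receptor NR4A1. CSF1R, the receptor for the growth factors CSF1 and IL-34, is shared by the whole lineage, while CD43, encoded by Spn, is strongest on the non-classical cells. CCR1 binds CCL3, CCL5 and related chemokines on monocytes and neutrophils.

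Total counts were 16883911 to 27687756 per saline tumor and 17008151 to 18527613 per PFSUV-IMQ tumor. Levels are normalized CPM, in which each tumor's reads were scaled with edgeR's TMM factors, and the floor of 3 counts was worth 0.105 to 0.21 CPM. That floor covers counting error only. Every one of the 9 genes passed the filter on low counts, with between 70 and 4076 counts per tumor across them. The HCC label was checked against its markers: Krt8 had 444 to 941 CPM, Alb 2940 to 22700 CPM and Afp, a fetal liver protein found in many HCCs, only 2.1 to 6.1 CPM. Summed over 8 hepatocyte and HCC genes, saline replicate 4 (31900 CPM) and PFSUV-IMQ replicate 2 (32900 CPM) stood above the other 6 tumors (6280 to 14200 CPM). These tumors also held the highest or lowest levels of several genes below, so counts are also given without them. Without both, 279 genes were called higher and 30 lower, against 362 and 32 with all 8 tumors, and Cx3cr1 alone of the 9 genes was called. No source says that replicates of a group differ in batch, and the samples are separate tumors.

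The stretches just before the transcription start are shown for the gene with the largest difference, Cx3cr1, and for the Ly6C pair, whose reads are hard to separate. Each is the 250 bases upstream of the first RefSeq start site on GRCm38.p6, written 5′ to 3′ on the gene's own minus strand. They lie at chr9:120068297-120068546 for Cx3cr1, chr15:75111972-75112221 for Ly6c2 and chr15:75048838-75049087 for Ly6c1. The Cx3cr1 window lies inside the gene span given below, whose annotated 5′ end is further upstream. Capitals mark the longest run, 20 bases, that both Ly6c windows hold without a mismatch.
Cx3cr1: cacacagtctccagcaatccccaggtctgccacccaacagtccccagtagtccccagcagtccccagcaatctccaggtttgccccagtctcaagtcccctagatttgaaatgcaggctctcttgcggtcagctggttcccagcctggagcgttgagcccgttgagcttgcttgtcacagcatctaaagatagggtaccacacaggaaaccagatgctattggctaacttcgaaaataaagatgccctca
Ly6c2: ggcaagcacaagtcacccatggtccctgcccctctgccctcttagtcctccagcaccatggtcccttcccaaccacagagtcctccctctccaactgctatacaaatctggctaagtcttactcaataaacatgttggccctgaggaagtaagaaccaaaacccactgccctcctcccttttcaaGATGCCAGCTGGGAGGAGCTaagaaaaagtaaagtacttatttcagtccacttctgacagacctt
Ly6c1: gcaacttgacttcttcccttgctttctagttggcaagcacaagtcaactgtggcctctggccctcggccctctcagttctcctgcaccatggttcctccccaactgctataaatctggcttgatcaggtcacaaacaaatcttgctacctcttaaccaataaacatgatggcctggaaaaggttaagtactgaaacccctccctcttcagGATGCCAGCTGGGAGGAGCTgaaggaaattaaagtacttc

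The Ly6c windows were identical in 171 of 290 aligned columns (59%). Across all 10 windows that were searched, which belong to 8 of the 9 genes (Csf1r was not searched), the STAT letters TTCNNNGAA were absent on both strands, and the interferon-response core GAAANNGAA was present in 1, that of Ccr2, starting 86 bases before the start. Among 32851 mouse promoter windows of the same length, 7.02% hold the former and 7.13% the latter, and no window here held both a STAT or interferon-response match and an ETS one. The ETS-type letters GGAAGT, found in 19.7% of those windows, occurred in 4 windows of 3 genes (Ly6c2, Ly6c1 at its second start site, and Spn), and in the Ly6c2 window printed above they begin 106 bases before the start. An absent match says only that these letters are not in these windows, and a match is a description of the sequence and not a binding site.

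Cx3cr1 (ENSMUSG00000052336, chr9:119901616-120069879, minus strand) had 61.1, 55.5, 103 and 64.1 CPM in saline replicates 1, 3, 4 and 5. In PFSUV-IMQ replicates 1, 2, 3 and 4 it had 11.2, 4.89, 13.2 and 11.1 CPM. Every PFSUV-IMQ tumor lay below every saline tumor, with saline replicate 4 the highest and PFSUV-IMQ replicate 2 the lowest of the 8. The means were 71.0 ± 21.8 and 10.1 ± 3.59 CPM (SD, n = 4 each), which is 7.04-fold lower after PFSUV-IMQ and a log2 fold change (log2FC) of -2.81 with a standard error (SE) of 0.33. Over 15 other settings of the fit, tumors left out included, the log2FC ranged from -2.96 to -2.37. The exons of the antisense gene Gm33858 overlap 78 exon bases of Cx3cr1 (1.73%), and whether reads were counted by strand is not given in the sources used here. In bulk tumors, fewer cells of a type and less RNA per cell cannot be told apart, here and in every result that follows.

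**Figure D1:**
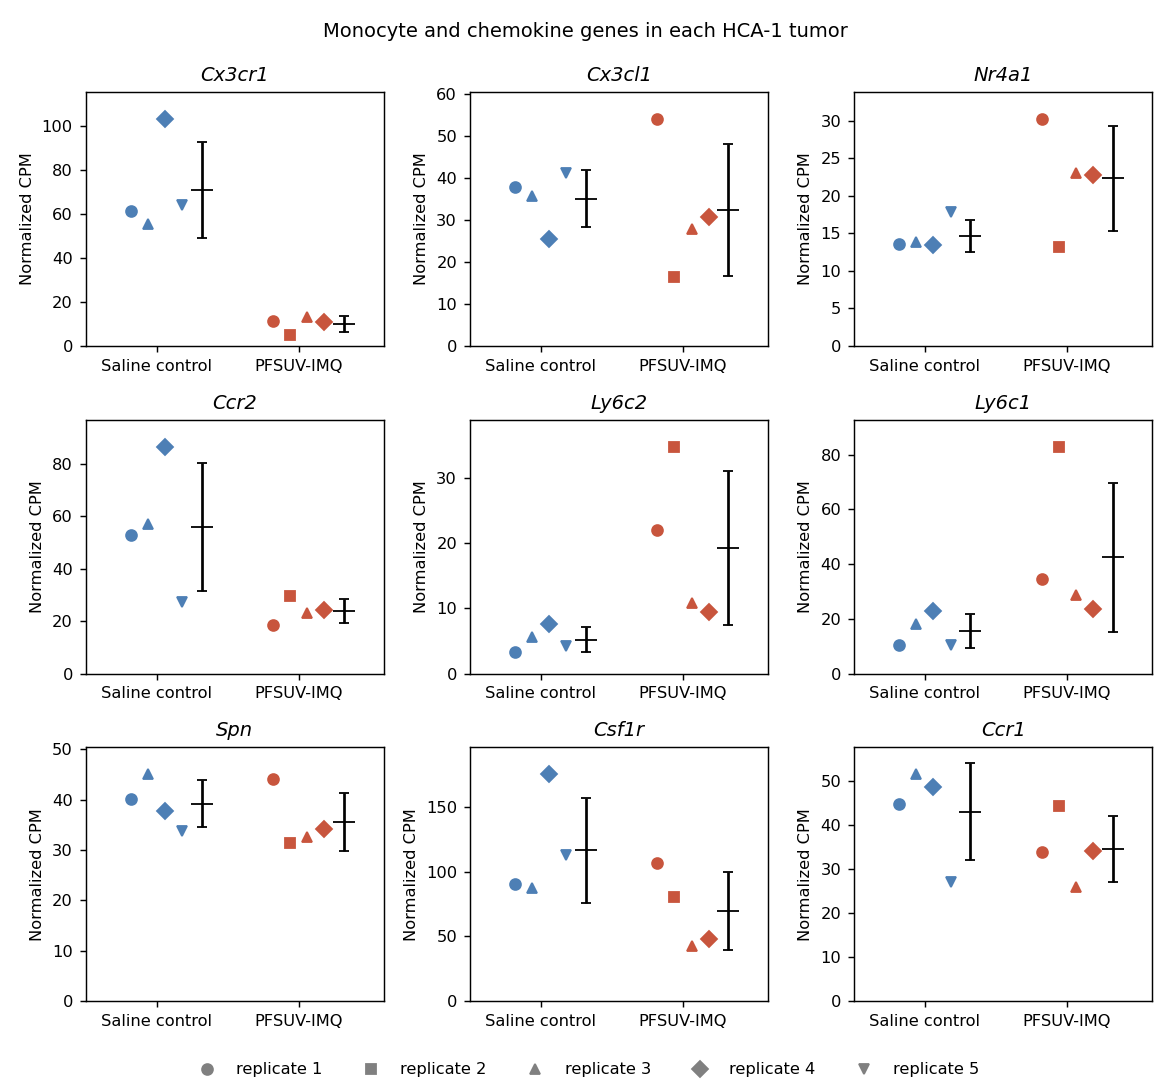
Normalized CPM (y axis, from 0 in each panel) of the 9 genes in the saline and PFSUV-IMQ tumors, with a symbol for each replicate number and bars for mean ± SD of 4 tumors. Cx3cr1 lies at 4.89 to 13.2 CPM after PFSUV-IMQ against 55.5 to 103 CPM after saline, Ly6c2 and Ly6c1 lie higher without overlap, and the other 6 genes overlap between the groups.

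The ligand gene showed no difference larger than the spread between tumors. Cx3cl1 (chr8:94772009-94782427) had 37.8, 35.8, 25.4 and 41.1 CPM in the saline tumors and 54.0, 16.5, 27.9 and 30.8 CPM in the PFSUV-IMQ tumors, in order of replicate number. The PFSUV-IMQ group held both the highest tumor (replicate 1) and the lowest (replicate 2), so the saline values fell within its range. Means were 35 ± 6.77 and 32.3 ± 15.7 CPM, with a log2FC of -0.12 (SE 0.32) that took both signs, from -0.49 to 0.14, over the 15 other settings. Of the proteases that release the ligand, Adam10 had 122 to 222 CPM after saline and 138 to 203 CPM after PFSUV-IMQ, with a log2FC of -0.06 (SE 0.23, adjusted p = 0.959 in the quasi-likelihood test of edgeR over all genes). Adam17 had 43.2 to 66.8 and 51.6 to 98.2 CPM, and its log2FC was 0.25 (SE 0.23).

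The wider list of 13 ligands and shedding enzymes, all of them tested, held no called gene, where called means that edgeR gave an adjusted p under 0.05 and a log2FC above 1 or below -1, a rule that 2.46% of all tested genes met. At an unadjusted p under 0.05, 5 of the 13 were higher and 0 lower, and the Wald test of DESeq2 called 4 higher (Ccl2, Ccl7, Ccl12 and Ccl4) and 0 lower. Among all tested genes 8.34% were higher and 4.65% lower at that unadjusted p, and DESeq2 called 2.92% of the genes it tested higher and 0.618% lower, shares to be set beside the same counts for the lists that follow. Ccl2, a ligand of CCR2, had 36.2, 42.7, 30.7 and 30.4 CPM after saline against 61.4, 276, 82.5 and 104 CPM after PFSUV-IMQ. Its groups did not overlap, PFSUV-IMQ replicate 2 stood far above the rest, and the log2FC was 1.90 (SE 0.44, adjusted p = 0.0549). Ccl7, the other main CCR2 ligand, had 27.3 to 43.6 CPM against 55.8 to 285 CPM, a log2FC of 1.92 (SE 0.47, adjusted p = 0.0741). Without PFSUV-IMQ replicate 2 the log2FC was 1.22 for Ccl2 and 1.17 for Ccl7, and both were then called, as they were without PFSUV-IMQ replicate 1, without a filter on low counts and with a term for the replicate number. Csf1, which signals through CSF1R, had 105 ± 13.4 CPM in the controls and 180 ± 23.9 CPM in the treated tumors, with an adjusted p of 0.0428, but its log2FC of 0.77 (SE 0.17) was within the fold limit. The list's median log2FC was 0.77, beside -0.03 for all 15998 tested genes.

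Among the chemokine receptors, Ccr2 was the next lowest of the 9 genes. Ccr2 (chr9:124101950-124113557) had 53.1, 57.0, 86.6 and 27.3 CPM in the saline tumors and 18.4, 29.8, 23.1 and 24.2 CPM in the PFSUV-IMQ tumors. The groups overlapped through saline replicate 5, which lay below PFSUV-IMQ replicate 2, while the other 3 saline tumors lay above all PFSUV-IMQ tumors. The means of 56.0 ± 24.3 and 23.9 ± 4.67 CPM gave a log2FC of -1.23 (SE 0.32). Ccr2 did not meet the call rule in edgeR's fit, but met it in 4 of the other settings: without a filter on low counts, in DESeq2, with a term for the replicate number, and without saline replicate 5. Ccr2 was selected with results of this comparison known, so these calls are a description and do not test it.

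Ccr1 (chr9:123962124-123968692) had 44.7, 51.4, 48.6 and 27.1 CPM after saline and 33.9, 44.2, 25.9 and 34.0 CPM after PFSUV-IMQ. Each group spanned a low and a high tumor and the ranges largely coincided, with means of 43.0 ± 10.9 and 34.5 ± 7.50 CPM and a log2FC of -0.32 (SE 0.24). Of 20 other chemokine receptor genes, 14 passed the filter, and 1 of them was called higher and 0 lower. That gene was Ccrl2, which encodes an atypical receptor that binds chemerin; it had 3.95 to 4.56 CPM after saline and 27.6 to 119 CPM after PFSUV-IMQ, a log2FC of 3.64 (SE 0.51, adjusted p = 0.00527) that was 2.81, and still called, without PFSUV-IMQ replicate 2. DESeq2 called Ackr1, the atypical receptor of red cells and venules, in addition. Of the 14, 3 were higher and 2 lower at an unadjusted p under 0.05. Those lower were Cxcr3 (log2FC -1.41, SE 0.62) and Xcr1 (-0.84, SE 0.3), and the groups overlapped for both. Estimates were higher for 9 of the 14 and lower for 5, and the median was 0.13.

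Both Ly6C genes were higher after PFSUV-IMQ, while Ccr2, the other surface marker of classical monocytes, had the lower values above. Ly6c2 (chr15:75108158-75111970), the main source of Ly6C on classical monocytes, had 3.36, 5.62, 7.65 and 4.29 CPM in the saline tumors and 22.1, 34.8, 10.9 and 9.43 CPM in the PFSUV-IMQ tumors. The groups did not overlap, and PFSUV-IMQ replicates 1 and 2 stood above replicates 3 and 4. Its means of 5.23 ± 1.86 and 19.3 ± 11.8 CPM gave a log2FC of 1.88 (SE 0.44). Ly6c1 (chr15:75044018-75048830), which endothelial and T cells also express, had 10.3, 18.2, 22.9 and 10.3 CPM after saline and 34.5, 82.9, 28.7 and 23.8 CPM after PFSUV-IMQ. Its groups did not overlap either, although PFSUV-IMQ replicate 4 exceeded saline replicate 4 by little; the log2FC was 1.46 (SE 0.43). Neither gene met the call rule in edgeR's fit, and both met it in DESeq2 and without the filter on low counts, Ly6c2 also without PFSUV-IMQ replicate 4. As with Ccr2, both were selected with results of this comparison known, so these calls do not test them.

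How far these are separate measurements is limited by sequence. Of the 50-base words of the longest Ly6c1 transcript (844 bases), 31.7% also occur in Ly6c2. Of those of the longest Ly6c2 transcript (2680 bases), 12.6% occur in Ly6c1. Words of that Ly6c2 transcript occur in 538 other genes, Ly6c1 among them. The longest run shared between those transcripts was 124 bases. How reads matching both genes were counted is not given in the sources used here, so the split between them is uncertain. On a log2 scale of CPM per kb of exon, the ratio of Ly6c2 to Ly6c1 was -2.25 ± 0.19 after saline and -1.86 ± 0.35 after PFSUV-IMQ, and the groups overlapped.

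Set against each other within a tumor, Ly6c2 and Ccr2 stood in another proportion in all 4 PFSUV-IMQ tumors. The log2 ratio of Ly6c2 to Ccr2, both per kb of exon, was -2.68, -2.04, -2.20 and -1.37 in the saline tumors and 1.57, 1.53, 0.22 and -0.06 in the PFSUV-IMQ tumors. No tumor of either group reached the range of the other, and the group means differed by 2.89. Both genes were selected with results of this comparison known, so the ratio is a description and was not tested.

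The list of 12 other classical monocyte genes did not share a single direction: 9 estimates were higher and 3 lower, and 1 gene was called higher and 0 lower. Ms4a4c, a membrane protein of the MS4A family, had 8.43, 8.43, 6.36 and 6.08 CPM after saline and 35, 119, 34.1 and 43.8 CPM after PFSUV-IMQ. The groups were far apart, with PFSUV-IMQ replicate 2 above its group, and the log2FC was 2.98 (SE 0.43, adjusted p = 0.00602); the gene stayed called with any tumor left out, at 2.34 without PFSUV-IMQ replicate 2. At an unadjusted p under 0.05, 4 of the 12 were higher and 0 lower, and DESeq2 called 3 higher, among them Ms4a4c and Clec4e. The list's median was 0.76. Its lower estimates were those of Chil3 (-0.81), F13a1 (-0.58) and Fn1 (-0.27). F13a1 was called lower with a term for the replicate number and without PFSUV-IMQ replicate 2. Fn1 had 3080 to 12200 CPM after saline, and in a whole tumor the levels of this list need not come from monocytes alone.

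Of the other genes tied to the non-classical state, Nr4a1 was higher in most PFSUV-IMQ tumors and Spn overlapped between the groups. Nr4a1 (chr15:101254269-101274795) had 13.6, 13.8, 13.4 and 17.9 CPM in the saline tumors and 30.2, 13.2, 23.1 and 22.8 CPM in the PFSUV-IMQ tumors. Of the PFSUV-IMQ tumors 3 lay above all saline tumors and replicate 2 lay below them, with a log2FC of 0.61 (SE 0.25) and means of 14.7 ± 2.16 and 22.3 ± 6.97 CPM. NR4A1 is also an immediate early gene product of many stimulated cells, so its level in a whole tumor does not belong to monocytes alone. Spn (chr7:127132232-127137823) had 40.2, 45.0, 37.8 and 33.8 CPM after saline and 44.0, 31.4, 32.6 and 34.1 CPM after PFSUV-IMQ. The groups overlapped almost fully, and the log2FC was -0.14 (SE 0.17), the smallest standard error of the 9 genes.

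Of 12 further non-classical monocyte genes, 8 estimates were lower and 4 higher, and 0 were called in edgeR's quasi-likelihood test. At an unadjusted p under 0.05, 5 were lower and 0 higher, and DESeq2 called 1 lower, Cd300e, an activating receptor of these cells. Cd300e had 2.72, 2.53, 6.57 and 1.90 CPM after saline and 1.66, 1.54, 0.892 and 1.10 CPM after PFSUV-IMQ. All PFSUV-IMQ tumors were below the lowest saline tumor, at a log2FC of -1.40 (SE 0.44, adjusted p = 0.165). Adgre4, an adhesion receptor of the same cells, had 0.489 to 3.87 CPM against 0.613 to 0.908 CPM, a log2FC of -1.35 (SE 0.55, adjusted p = 0.326). Gngt2, a G protein subunit, had 15.9, 17.1, 20.6 and 17.4 CPM after saline and 10.8, 11.3, 10.8 and 10.4 CPM after PFSUV-IMQ. The groups were apart by more than their spread and the adjusted p was 0.0484, but the log2FC of -0.71 (SE 0.16) was within the fold limit. Fabp4, a fatty acid carrier that endothelial cells also make, had a log2FC of -0.68 (SE 0.18, adjusted p = 0.105). The remaining lower estimates were those of Treml4 (-1.03), Ear2 (-0.82), Itgax (-0.27) and Itgal (-0.1). The 4 higher estimates were those of Ace (0.56), Pglyrp1 (0.55), Pou2f2 (0.33) and Eno3 (0.03). Ace had 9.59 to 24.8 CPM after saline and 18.2 to 35.5 CPM after PFSUV-IMQ, and its groups overlapped. The median of the 12 was -0.47, and their summed level was 305 to 372 CPM in the saline tumors and 272 to 364 CPM in the PFSUV-IMQ tumors. Abundant genes weigh most in that sum, such as Eno3 with a saline mean of 105 CPM, beside 3.43 CPM for Cd300e.

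Of 10 other transcription factors of the monocyte lineage, 0 were called in edgeR's test, with 4 higher and 0 lower at an unadjusted p under 0.05 and 3 called higher by DESeq2 (Nr4a3, Klf2 and Cebpb). Nr4a3, a relative of Nr4a1, had 4.15 to 5.20 CPM after saline and 6.97 to 25.6 CPM after PFSUV-IMQ, a log2FC of 1.46 (SE 0.40, adjusted p = 0.109) that was 0.86 without PFSUV-IMQ replicate 2. The remaining NR4A gene, Nr4a2, had 17.3 to 27.0 and 17.7 to 24.4 CPM. Cebpb, which non-classical monocytes need to survive, had 38.7 to 86.1 against 115 to 221 CPM, a log2FC of 1.29 (SE 0.29, adjusted p = 0.0549). Klf4 had 163 to 284 against 361 to 460 CPM, and its log2FC was 0.89 (SE 0.20, adjusted p = 0.0549). Cebpb and Klf4 were called when saline replicate 5 was left out, at 1.51 and 1.02. The groups did not overlap for Nr4a3, Cebpb, Klf2 and Klf4, 4 of the 10, beside 6.00% of all tested genes that lay higher without overlap, and the median of the list was 0.15.

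Csf1r, on chromosome 18, encodes the receptor of the whole lineage and had 90.4, 87.6, 175 and 113 CPM in the saline tumors and 107, 80.1, 42.7 and 48.3 CPM in the PFSUV-IMQ tumors. PFSUV-IMQ replicates 2, 3 and 4 lay below all saline tumors, replicate 2 by little, while replicate 1 lay within the saline range, and saline replicate 4 was the highest. The means were 116 ± 40.7 and 69.4 ± 29.8 CPM, with a log2FC of -0.75 (SE 0.33). The exons of the antisense gene Hmgxb3 overlap 873 exon bases of Csf1r (15.1%), so its level may hold reads of that gene if strand was not used in counting.

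Relative to Csf1r, Cx3cr1 was still lower in each PFSUV-IMQ tumor. The log2 ratio of Cx3cr1 to Csf1r, both as CPM per kb of exon, was -0.21, -0.30, -0.40 and -0.45 in the saline tumors, a spread of 0.11 (SD) around -0.34. In the PFSUV-IMQ tumors it was -2.89, -3.68, -1.34 and -1.77, with a mean of -2.42 ± 1.06. The groups did not overlap, and PFSUV-IMQ replicates 1 and 2 stood lower than replicates 3 and 4. The ratio of Ccr2 to Csf1r, by contrast, was -1.34 ± 0.64 and -1.69 ± 0.75, and its groups overlapped. Since Cx3cr1 was chosen for its low level in these tumors, neither ratio was tested.

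**Figure D2:**
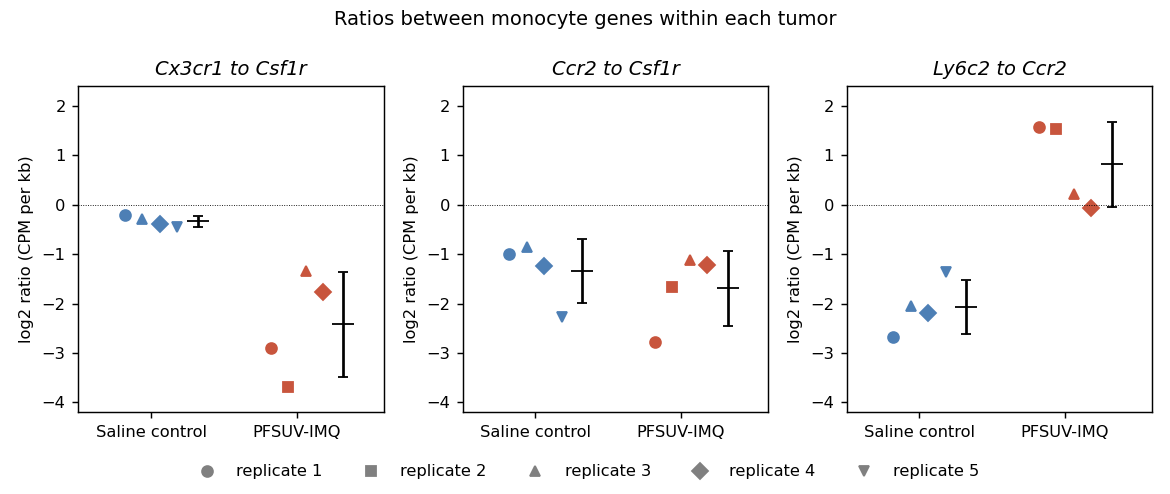
Log2 ratios between pairs of genes within each tumor (y axis, both genes as normalized CPM per kb of exon), with a symbol for each replicate number and bars for mean ± SD of 4 tumors; the dotted line marks equal levels. Cx3cr1 to Csf1r was -0.45 to -0.21 after saline and -3.68 to -1.34 after PFSUV-IMQ, Ccr2 to Csf1r overlapped, and Ly6c2 to Ccr2 was -2.68 to -1.37 after saline and -0.06 to 1.57 after PFSUV-IMQ.

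General macrophage and myeloid genes, which resident and recruited cells share, had a median close to that of all genes. Of 18 such genes, 12 estimates were lower and 6 higher, the median was -0.06, and 1 gene was called higher and 0 lower. The pan-macrophage gene Adgre1 (F4/80) had 33.0, 38.3, 70.1 and 26.3 CPM after saline and 34.6, 57.6, 12.8 and 20.5 CPM after PFSUV-IMQ. Here PFSUV-IMQ replicate 2, where Cx3cr1 was lowest, was among the highest tumors, while replicates 3 and 4 were the lowest. The lysosomal marker Cd68 had 91.8 to 122 and 65.0 to 142 CPM, Lyz2 (lysozyme) 789 to 1350 and 560 to 1220 CPM, and the complement gene C1qa 302 to 417 and 237 to 497 CPM, in saline and PFSUV-IMQ tumors respectively. The called gene, Fcgr1, encodes the high-affinity IgG receptor CD64; it had 28.1 to 40.0 CPM after saline and 60.8 to 127 CPM after PFSUV-IMQ, a log2FC of 1.32 (SE 0.26, adjusted p = 0.0290). Its call was kept by 3 of 8 leave-one-out fits, without PFSUV-IMQ replicates 1, 3 and 4. Cd163, a scavenger receptor for haptoglobin and hemoglobin, had 5.10 to 11.4 against 2.76 to 5.24 CPM, a log2FC of -1.02 (SE 0.33, adjusted p = 0.183).

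Lower calls were found for 1 Kupffer cell gene and 1 microglia-like gene. Vsig4, a complement receptor of liver-resident macrophages, had 13, 11.9, 28.4 and 15.8 CPM in the saline tumors and 4.69, 8.59, 3.74 and 5.51 CPM in the PFSUV-IMQ tumors. The groups did not overlap, and the log2FC was -1.62 (SE 0.35, adjusted p = 0.0453). Its call was kept by 1 of 8 leave-one-out fits, without PFSUV-IMQ replicate 2. Clec4f, the defining lectin of Kupffer cells, had 16.1 to 41.8 against 13.6 to 18.7 CPM, a log2FC of -0.96 (SE 0.27, adjusted p = 0.122), and it was called, at -1.17, when saline replicate 1 was left out. Of the 6 Kupffer genes 5 estimates were lower, 3 were lower and 0 higher at an unadjusted p under 0.05, the median was -0.82, and the summed level was 70.0 to 178 CPM after saline and 48.6 to 90.5 CPM after PFSUV-IMQ.

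Gpr34, a receptor for lysophosphatidylserine found on microglia and some tissue macrophages, had 9.86, 10.3, 15.2 and 4.18 CPM after saline and 2.48, 3.00, 1.56 and 2.32 CPM after PFSUV-IMQ. All PFSUV-IMQ tumors lay below saline replicate 5, the lowest control, and the log2FC was -2.08 (SE 0.39, adjusted p = 0.0237). Its call was kept by 2 of 8 leave-one-out fits, without saline replicate 5 and without PFSUV-IMQ replicate 2. Fcrls, an Fc receptor-like scavenger receptor, had 3.72 to 25.2 against 2.76 to 4.75 CPM, with a log2FC of -1.59 (SE 0.53, adjusted p = 0.208) that was -0.81 without saline replicate 4. P2ry12, a purinergic receptor of the same list, had 2.33 to 8.29 and 1.51 to 7.68 CPM, with nearly equal ranges. Of the 12 genes 4 were lower and 0 higher at an unadjusted p under 0.05, the median was -0.38, and DESeq2 called Gpr34 and Fcrls lower.

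Over the 60 genes of these 5 monocyte and macrophage lists, which do not include the 9 genes followed here, 2 were called lower and 2 higher, 36 estimates were lower and 24 higher, and the median log2FC was -0.17. At an unadjusted p under 0.05, 13 of the 60 were lower and 6 higher. Across all 15998 tested genes 0.200% were called lower, 2.26% called higher and 2.46% called in either direction, and the median was -0.03. None of the 60 had a log2FC as low as that of Cx3cr1, the lowest being Gpr34. Because Cx3cr1 was chosen for its fall in this comparison, nothing is read from that order. Without saline replicate 4 and PFSUV-IMQ replicate 2, the tumors highest in hepatocyte genes, the same 4 list genes (Gpr34, Vsig4, Fcgr1 and Ms4a4c) were called.

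**Figure D3:**
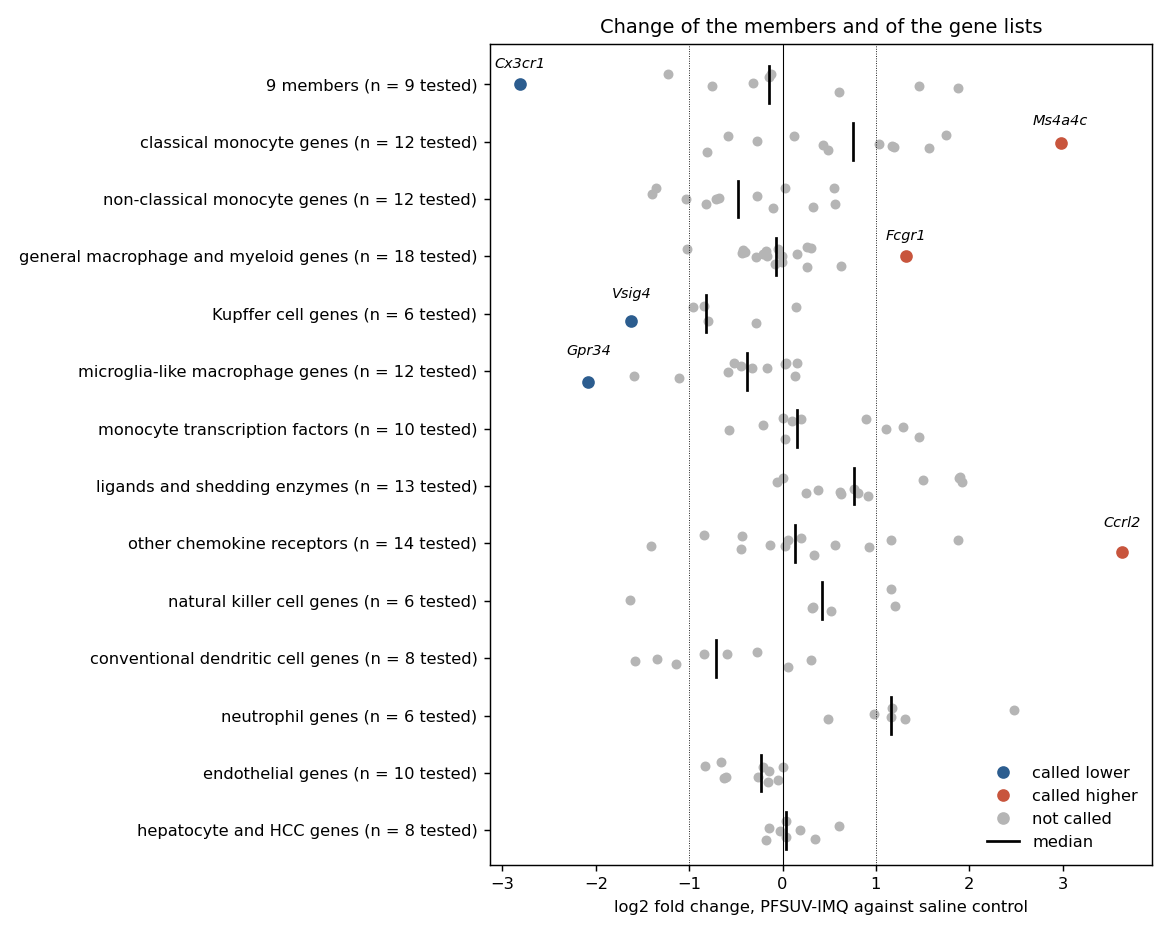
Log2 fold change of PFSUV-IMQ against saline tumors (x axis) for each tested gene of the 9 genes followed and of 13 lists, a point per gene, with a bar at each list's median and dotted lines at the fold limit of 1. Cx3cr1, which was chosen for its fall in this comparison, lies at -2.81, below every gene of the monocyte and macrophage lists. The called genes of those lists are Gpr34 and Vsig4 (lower) and Ms4a4c and Fcgr1 (higher).

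Of the 9 genes themselves, 1 (Cx3cr1) met the call rule, against 2.46% of all tested genes, and nothing is read from that count since the comparison chose it. For 3 genes the groups did not overlap, lower for Cx3cr1 and higher for Ly6c2 and Ly6c1, a state found in 9.28% of all tested genes (3.28% lower and 6.00% higher). Estimates were lower for 6 of the 9 and higher for 3, with a median of -0.14.

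Per kb of exon, which allows levels of different genes to be set side by side, the order of the 9 genes was rearranged. In the saline tumors Csf1r was first at 20.2 ± 7.05 CPM per kb, followed by Cx3cr1 (15.8 ± 4.83) and Ccr1 (15.2 ± 3.85), which did not differ beyond their spread. Ly6c1 (9.21 ± 3.71 CPM per kb), Cx3cl1 (8.92 ± 1.72), Spn (8.37 ± 0.995) and Ccr2 (8.28 ± 3.59) formed a middle range without a resolved order. Nr4a1 (4.18 ± 0.617 CPM per kb) and Ly6c2 (1.91 ± 0.678) were lowest, and those last genes did not overlap each other. In the PFSUV-IMQ tumors Ly6c1 was first at 25.3 ± 16.3 CPM per kb, although with a wide spread. Ccr1 (12.2 ± 2.65 CPM per kb), Csf1r (12 ± 5.16), Cx3cl1 (8.21 ± 4.0), Spn (7.59 ± 1.23), Ly6c2 (7.05 ± 4.29) and Nr4a1 (6.37 ± 1.99) followed with neighbors that overlapped. Ccr2 at 3.53 ± 0.691 and Cx3cr1 at 2.24 ± 0.797 CPM per kb came last, and those also overlapped. Cx3cr1 thus went from rank 2 to rank 9, and Ly6c2 from rank 9 to rank 6.

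The genes whose profile over the 8 tumors was most like that of Cx3cr1 were found by the root mean square distance between log2 CPM values, each gene centered on its own mean. They were Adra2b at a distance of 0.300, Tlr11 at 0.599, Flrt1 at 0.608, Btnl9 at 0.616 and Rab3il1 at 0.652, out of 15997 genes ranked. Since this distance holds the group difference itself, the values below are a description.

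Adra2b, an adrenergic receptor gene, had 1.01, 1.58, 2.96 and 1.90 CPM in the saline tumors and 0.276, 0.0699, 0.335 and 0.331 CPM in the PFSUV-IMQ tumors. It shared with Cx3cr1 the highest tumor, saline replicate 4, and the lowest, PFSUV-IMQ replicate 2, where it had 1 count and was therefore under the floor of 3. Tlr11, a receptor for microbial proteins, had 3.62 to 7.60 against 0.717 to 1.54 CPM. Flrt1, a transmembrane protein, had 0.691 to 1.29 against 0.0699 to 0.335 CPM, with 1 count in PFSUV-IMQ replicate 2 and so under the same floor, and Btnl9, of the butyrophilin family, 3.20 to 6.74 against 1.10 to 1.67 CPM. Rab3il1, a guanine nucleotide exchange factor, was the most abundant of these at 21.0 to 41.0 against 6.58 to 9.21 CPM.

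Ranks in the same order were read for the other genes followed here and for the list genes Gpr34 and Vsig4. The nearest genes named above come first by construction, and which cells express them was not tested. Gpr34 and Vsig4 are the list genes that were called lower. The distance holds the group difference, so their near ranks follow from picking them. Ranks of the other list genes are not given. Gpr34 was at rank 24, Vsig4 at rank 55, Ccr2 at rank 148 and Csf1r at rank 613. Cx3cl1 (rank 3783), Spn (4431) and Ccr1 (4588) lay in the middle of the ranking or nearer, and Nr4a1 (12711), Ly6c1 (15425) and Ly6c2 (15607) towards its far end.

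**Figure D4:**
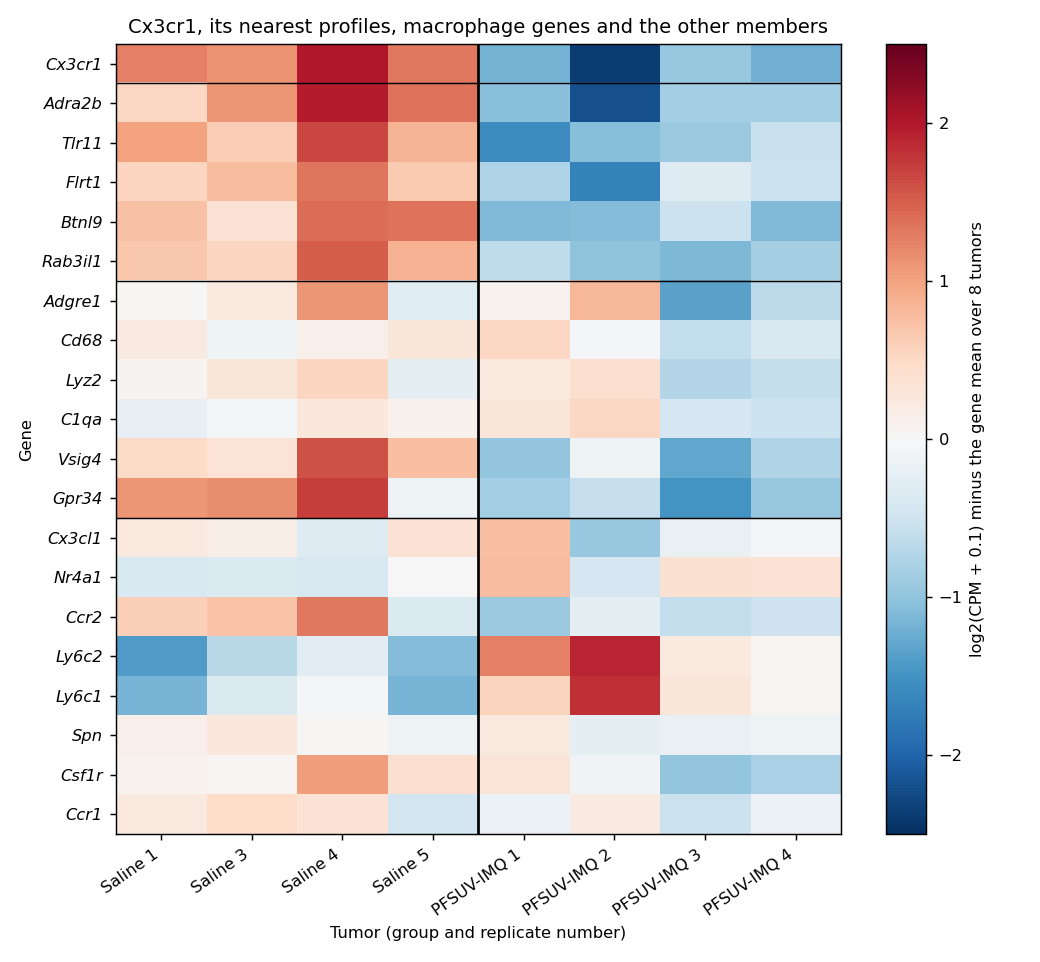
Heat map of log2(CPM + 0.1) minus each gene's mean over the 8 tumors (color), with a row per gene and a column per tumor; rows show Cx3cr1, its 5 nearest profiles, 6 macrophage genes and the other 8 genes followed. Saline replicate 4 is highest and PFSUV-IMQ replicate 2 lowest for Cx3cr1 and Adra2b, whereas Adgre1 is high in both of these tumors and Ly6c2 is highest in PFSUV-IMQ replicate 2.

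Markers of other cells that can carry the 9 genes are given as values, and their part in the results was not tested. Of 8 natural killer cell genes 6 were tested, 0 were called by edgeR's quasi-likelihood test or by DESeq2 (2 higher and 1 lower at an unadjusted p under 0.05), and the summed level was 20.7 to 83.4 CPM after saline and 51.1 to 153 CPM after PFSUV-IMQ. Of the 6 tested, 5 estimates were higher and 1 lower, with a median of 0.43. The activating receptor gene Klrk1 had 7.87 to 19.9 against 19.5 to 57.2 CPM and the granzyme gene Gzma 0.277 to 0.562 against 0.496 to 2.03 CPM, while the defining receptor gene Ncr1 had 0.415 to 1.98 against 0.110 to 0.768 CPM and Klrb1c did not pass the filter. Of 8 conventional dendritic cell genes 0 were called by edgeR (0 higher and 3 lower at an unadjusted p under 0.05) and 2 were called lower by DESeq2, the growth factor receptor Flt3 and the integrin Itgae. Their median was -0.71 and their summed level 42.6 to 87.9 against 31.4 to 58.0 CPM, with Flt3 at 4.06 to 9.56 against 2.45 to 4.54 CPM. Estimates of this list were lower for 6 genes and higher for 2, Clec9a (0.06) and Batf3 (0.31). Zbtb46, among the lower ones, had a log2FC of -0.27 (SE 0.29).

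Of 8 neutrophil genes 6 were tested and 0 were called by either tool (2 higher and 0 lower at an unadjusted p under 0.05). All 6 estimates were higher, with a median of 1.16, and the summed level was 18 to 64.8 CPM after saline and 35 to 157 CPM after PFSUV-IMQ, with the top value in PFSUV-IMQ replicate 2. The defining surface gene Ly6g did not pass the filter. Endothelial genes, which mark cells that can hold CX3CL1 and also express Ly6c1, had 0 of 10 called by either tool (0 higher and 1 lower at an unadjusted p under 0.05). Their estimates were lower for 9 genes and higher for 1, with a median of -0.24 and a summed level of 158 to 250 against 142 to 223 CPM. Pecam1, which encodes CD31, had 27.4 to 43.1 and 24.6 to 40.3 CPM. Hepatocyte and HCC genes had 0 of 8 called by either tool and 0 of 8 under an unadjusted p of 0.05, with a median of 0.04.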

How the data were processed

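The authors deposited whole-number counts of reads per gene for 8 tumors. Their methods name TopHat and HTSeq, whereas the submitters' processing notes list Trimmomatic 0.38, HISAT2 2.1.0 and featureCounts 2.0.0. Which route made the table, the genome build, and the use of strand are not given in the sources used here. All gene identifiers are in the GENCODE M21 annotation (GRCm38), which gave coordinates and exon lengths. A second deposited table holds signal values, which are the counts divided by 1 DESeq2 size factor per tumor. It was used only for gene symbols, and 0 columns of per-sample values were left unmapped.

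Counts were analyzed in R 4.3.3 with edgeR 4.0.16 (TMM, default filter on low counts, quasi-likelihood test, Benjamini-Hochberg adjustment over 15998 genes) and tables in Python 3.11.15 (pandas 2.3.3, numpy 2.4.6; figures with matplotlib 3.10.9). The call rule was an adjusted p under 0.05 with a log2 fold change above 1 or below -1. Each SE was derived as the absolute log2 fold change divided by the square root of the quasi-likelihood F statistic. Alternatives were DESeq2 1.42.0, DESeq2 size factors, upper-quartile normalization, no filter, at least 10 counts in every tumor, no fold limit, a term for the replicate number and each tumor left out in turn. Leaving out the pair of tumors highest in hepatocyte genes was added after seeing the data. The numbers 1, 3 and 4 label tumors of both groups but different animals. Across genes, tumors of the same group correlated at 0.912 to 0.984 (Pearson).

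The 9 genes and the gene lists were chosen with earlier results of these data known. Named genes are the 9, the called genes of each list or else its largest changes up to 2, called chemokine receptors, the 5 nearest profiles of Cx3cr1 and genes sharing exons or 50-base words with a member. Levels in each tumor are also given for list genes that mark a cell type, and list genes that the text names beyond that rule were chosen after their values were seen. Some genes that the rule would name are not reported here. Promoter sequences are from RefSeq (GRCm38.p6).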

Additional observations from a re-analysis of the deposited data

Results flagged for a closer look

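For the 9 genes and the other named genes, 56 in all, each group of 4 tumors was checked for a tumor that stands apart by Dixon's criterion, which chance meets in about 1 in 20 groups. Of 112 groups 15 met it. PFSUV-IMQ replicate 2 was the tumor concerned in 9 and saline replicate 4 in 3, and 14 were high values. No cause was tested.

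Among the 9 genes it was met once, by Nr4a1 at 17.9 CPM in saline replicate 5, where the nearest control had 13.8 CPM. In PFSUV-IMQ replicate 2 the monocyte genes Ms4a4c (119 CPM, nearest 43.8) and Plac8 (234 CPM, nearest 92.5) stood above their group. The same tumor was apart for the transcription factors Nr4a3 (25.6 CPM) and Cebpb (221 CPM) and for the receptor Ccrl2 (119 CPM). It was also apart for Gzma (2.03 CPM), the neutrophil genes Retnlg (11.0 CPM) and Mmp8 (13.6 CPM), and Hnf4a (248 CPM), which encodes a hepatocyte transcription factor. In saline replicate 4 the values concerned were Ackr1 (2.1 CPM), Cd209a (7.0 CPM) and Stab2 (38.1 CPM). Adam17 in saline replicate 5 was low at 43.2 CPM, and Btnl9 in PFSUV-IMQ replicate 3 was high within its group at 1.67 CPM.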

How the results depend on the processing

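Cx3cr1 met the call rule under each of the alternatives run, with log2 fold changes of -2.96 to -2.58 when any tumor was left out. Since this comparison chose Cx3cr1, refits of the same tumors cannot test it, and these values are a description. Other counts moved. Without a filter on low counts 63 genes were called lower and 4 of the 9 genes were called. DESeq2 called 619 genes higher and 131 lower, 4 of the 9 genes, and 4 monocyte and macrophage list genes in each direction. A replicate block, tried although same-numbered tumors come from different animals (correlations of their deviations 0.294, -0.268 and -0.316), called 267 genes lower, 2 of the 9 genes, and 6 list genes lower and 1 higher. With each tumor left out in turn, 197 to 375 genes were called higher and 8 to 38 lower, 1 to 2 of the 9 genes, 0 to 3 list genes lower and 1 to 2 higher. The cause of these moves was not tested.

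Some uncalled genes near 0 changed sign. With the block the log2 fold change of Adam17 was -0.08, of Apoa2 -0.46 and of Hnf4a -0.72. Nr4a2 was at 0.01 with at least 10 counts per tumor. Over the fits that left out a tumor, Apoa2 ranged from -0.16 to 1.34, Adam10 from -0.19 to 0.09, C1qa from -0.23 to 0.15, Hnf4a from -0.73 to 1.25 and Nr4a2 from -0.10 to 0.12. Of 697 alternative values for the 47 named genes outside the 9, 630 kept direction and call, 30 gained a call, 21 lost one and 16 reversed. Of the 9, Ccr2 gained a call in 4 settings, Ly6c2 in 3 and Ly6c1 in 2, and Cx3cl1 turned from -0.12 to 0.14 with the block and to 0.08 without PFSUV-IMQ replicate 2. Since the 9 were selected with results of this comparison known, refits of the same tumors do not test them. The median of all tested genes was -0.10 with upper-quartile normalization and 0.06 without a filter on low counts, beside -0.03. Intervals here rest on 4 tumors per group.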
